A study of Mus musculus with 27 samples.

Results

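Iron handling in the maternal mouse liver was described by the 10 genes Hamp, Hamp2, Tfr2, Hfe, Tfrc, Trf, Slc40a1, Bmp6, Smad7 and Id1, which were taken by their symbols from the 21823 genes of the expression table. All 10 were found once and all 10 passed the filter on low values. The values come from RNA sequencing of lobular zones 1, 2 and 3, which were cut by laser microdissection from frozen liver sections of female C57BL/6 wild-type mice (C57BL/6N in the study's methods). Non-pregnant mice (NP) were set against mice at day 8 (dpc8) or day 16 (dpc16) after mating. No group carried a genetic change or received a drug. Each of the 9 groups of stage and zone had 3 libraries, numbered 1, 2 and 3, which gives 27 libraries. The study describes its zone data as 3 independent experiments, and its methods say in general that different mice were used for repeats. Neither the labels nor the methods tie a library number to a mouse, so p-values measure the spread between these samples, and zones with the same number may share a mouse.

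Hepcidin is the hormone by which the liver limits the iron in blood. It binds the iron exporter ferroportin on gut cells, macrophages and hepatocytes and causes it to be degraded, so that less iron enters the plasma. Hepatocytes read iron through transferrin receptors and HFE at the cell surface and through the bone morphogenetic protein BMP6, which sinusoidal endothelial cells secrete, and the SMAD signal of the BMP receptors raises hepcidin transcription. In pregnancy the demand of the mother and fetus for iron grows, and low hepcidin is known to accompany late gestation.

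The depth of the libraries, estimated from the steps between low values, was 7.35 to 32.7 M reads, at which 1 read on a transcript of 1 kb is worth 0.0306 to 0.136 FPKM (read fragments per length of transcript and per depth of library). In 6 of the 27 libraries, 4 genes of the Y chromosome summed to 7.92 to 23.2 FPKM, against 0 to 2.97 FPKM in the 21 others, although all mice are labelled female. The source of this RNA was not tested. The same 6 libraries were the highest for 12 genes of connective tissue and smooth muscle, which summed to 1024 to 4794 FPKM in them and to 84.7 to 602 FPKM in the others. They are number 1 of NP zone 1, number 2 of NP zone 3, number 1 of dpc8 zone 1, number 2 of dpc8 zone 2, and number 3 of dpc16 zones 2 and 3, called Y-positive libraries from here on. In bulk tissue fewer cells of a type and less RNA per cell cannot be told apart. The label of hepatic tissue held in every library: 7 hepatocyte genes summed to 34699 to 230441 FPKM. Zone labels held too, since 9 pericentral genes summed to 393.6 to 840.5 FPKM in zone 1 and to 7779 to 19237 FPKM in zone 3.

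The hepcidin genes Hamp and Hamp2 are neighbouring copies on chromosome 7, and 130 bases before the start of each are shown because the levels of both are set side by side at each stage. They come from RefSeq on GRCm38.p6 and run from base -150 to base -21 before the start, on the minus strand, at chr7:30944050-30944179 for Hamp and chr7:30924202-30924331 for Hamp2. Capitals mark GGCGCC, the core of the BMP response element, and TTCNNNGAA, the form of a STAT site, in which N is any base.
Hamp: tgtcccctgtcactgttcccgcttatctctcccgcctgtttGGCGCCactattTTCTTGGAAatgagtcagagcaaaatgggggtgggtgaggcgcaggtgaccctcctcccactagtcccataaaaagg
Hamp2: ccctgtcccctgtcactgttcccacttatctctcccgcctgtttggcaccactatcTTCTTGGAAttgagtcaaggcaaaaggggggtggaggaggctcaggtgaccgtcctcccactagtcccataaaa

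Both motifs read the same on both strands and do not overlap each other. The STAT form was in both promoters. GGCGCC was in the Hamp stretch only, where the aligned Hamp2 base differs by G45A, counted from 1 at the 5′ end of the Hamp stretch. Over windows of 250 bases before to 50 after the start, Hamp and Hamp2 shared 276 of 297 aligned bases (92.9%). Of 32851 promoter windows of that length, 3898 (11.9%) held GGCGCC and 2726 (8.3%) the STAT form. Of the 10 genes, 6 had a window in the table, and GGCGCC was also in 1 of the windows of Tfrc. These are matches of letters, and binding was not measured.

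Hamp, which encodes hepcidin, fell at dpc16 in zone 3. In NP the 3 libraries held 790.4, 447.4 and 561.9 FPKM in zone 3 (numbers 1, 2 and 3), and at dpc16 they held 12.1, 133.4 and 4.41 FPKM. The stages did not overlap, and the dpc16 libraries differed from each other far more than the NP ones. The log2 fold change was -4.79 ± 1.17 (SE, n = 3 against 3, limma, Benjamini-Hochberg adjusted p = 0.0425). It was the only one of the 10 genes called in this comparison, in which 1.32% of all genes were called. Without the Y-positive libraries the log2 fold change was -3.99 and the call was lost (adjusted p = 0.0580, limma).

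In zone 1, Hamp at dpc16 ran from above the NP range to far below it, and in zone 2 from within that range to far below it. Zone 1 held 826.6, 1211 and 1329 FPKM in NP and 422.6, 1670 and 80.2 FPKM at dpc16. Zone 2 held 1647, 1346 and 2245 FPKM in NP and 336.9, 1380 and 21.8 FPKM at dpc16. Hamp was called against NP in neither zone. Before adjustment its p was under 0.05 in zone 2 but not in zone 1 (limma). In each of the 3 zones of dpc16, number 2 was highest, number 1 lay between and number 3 was lowest, so the low values moved together across zones. Number 3 of dpc16 zones 2 and 3 are Y-positive libraries, and number 3 of zone 1, at 80.2 FPKM, is not. Its Y chromosome genes summed to 2.97 FPKM, however, the highest of the 21 other libraries. Its connective tissue genes summed to 237.1 FPKM, against 90.2 and 94.1 FPKM in numbers 1 and 2 of that zone.

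Averaged over the zones of each number, Hamp differed by -3.09 ± 1.01 on the log2 scale between dpc16 and NP (SE, n = 3 averages against 3, limma adjusted p = 0.159) and by -2.96 between dpc16 and dpc8 (limma adjusted p = 0.190). Neither passed the threshold. The libraries of dpc16 deviated together by number, and with the number as a replicate block both passed it (limma adjusted p = 0.00735 and 0.0105). The block applies 1 correlation, 0.193, to all genes, and that of Hamp alone was not estimated. Where zones of a number share more than this, its p-values between stages are too small. The fit on averages counts each number as 1 unit. Without number 2 of dpc16 the difference from NP was -4.32 (limma adjusted p = 0.0301) and that from dpc8 was -4.20 (limma adjusted p = 0.0407). At the other end, without number 3 of dpc16 they were -1.84 and -1.71 (limma adjusted p = 0.130 and 0.142), and with array weights, which give less weight to libraries that stand apart, -1.73 and -1.45 (limma adjusted p = 0.188 and 0.161). Without the Y-positive libraries they were -2.63 and -2.59 (limma adjusted p = 0.0694 and 0.0696). The zone 3 call was lost without each of the other 5 libraries in turn, at adjusted p values of 0.0763 to 0.170 (limma). The fold change itself stayed between -6.12 and -3.80 under every alternative, the lowest being without number 2 of dpc16.

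At dpc8, Hamp held 963.4, 1222 and 2986 FPKM in zone 1, 1128, 784.3 and 2636 FPKM in zone 2, and 307.0, 428.6 and 551.2 FPKM in zone 3. These ranges overlapped those of NP in every zone. Acute phase genes, which inflammation raises together with hepcidin, summed to medians of 2581 FPKM in NP, 3112 FPKM at dpc8 and 5361 FPKM at dpc16 (9 genes, 9 libraries each, range at dpc16 1274 to 9244 FPKM). At dpc16 their sum had the same order by number as Hamp in each zone. It was 9244, 5759 and 4671 FPKM in zone 1, 8640, 5361 and 1274 FPKM in zone 2, and 7360, 3545 and 1637 FPKM in zone 3 for numbers 2, 1 and 3. Outside dpc16 the orders were the same only at dpc8 in zone 1. In NP zone 3 they were opposite, with acute phase sums of 1844, 2581 and 2306 FPKM for numbers 1, 2 and 3. Number 3 of dpc16 zones 2 and 3, both Y-positive, also held the lowest hepatocyte gene sums of their groups (47787 and 63429 FPKM). Kupffer cell genes, which mark the macrophages of liver, summed to medians of 240.6, 235.6 and 154.9 FPKM (9 genes) in the same order of stages. In zone 3, where Hamp was called, they summed to 136.8 to 165.1 FPKM in NP and to 44.0 to 102.6 FPKM at dpc16, without overlap. The part of these lists in the Hamp values was not tested.

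Hamp2, the second hepcidin gene of the mouse, encodes a protein that is not known to control iron as hepcidin does, and it was called against NP in no zone. Zone 1 held 809.0, 288.6 and 577.0 FPKM in NP and 1395, 1080 and 1958 FPKM at dpc16, where the stages did not overlap in FPKM but did as a share of the library's FPKM sum (0.0458% to 0.162% in NP and 0.117% to 0.223% at dpc16). Zone 3 held 606.3, 248.4 and 213.3 FPKM in NP and 250.8, 186.7 and 95.6 FPKM at dpc16. Zone 2 held 1231, 527.3 and 390.8 FPKM in NP and 1616, 1038 and 424.9 FPKM at dpc16. The difference in zone 1 was 1.48 ± 0.64 on the log2 scale and did not pass the threshold (n = 3 against 3, limma adjusted p = 0.374), nor did those of the other zones (0.50 in zone 2 and -0.94 in zone 3). At dpc8 the 9 libraries held 94.6 to 787.9 FPKM.

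**Figure D1:**
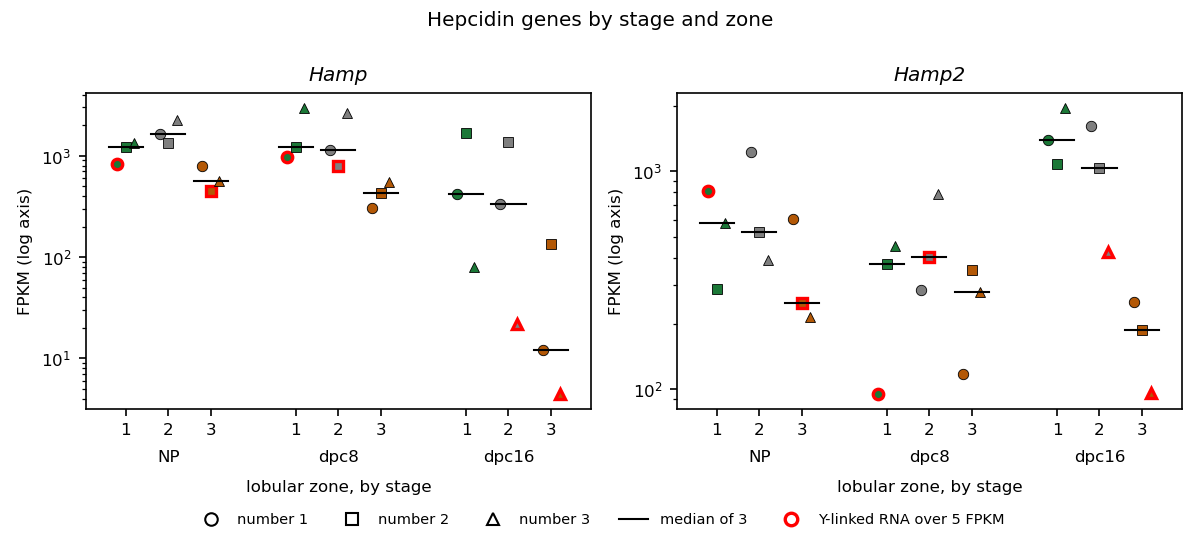
FPKM of Hamp and Hamp2 in each library (log axis) by stage and zone. Symbols give the library number, bars the median of 3 libraries and red outlines the 6 Y-positive libraries. Hamp at dpc16 runs from 4.41 to 1670 FPKM, with number 2 highest and number 3 lowest in every zone, and Hamp2 at dpc16 is lowest in zone 3.

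The ratio of both genes is given by stage as a description. Hamp was above Hamp2 in 9 of 9 libraries of NP, at a ratio of 1.02 to 5.74 (median 2.30), and in 9 of 9 libraries of dpc8, at 1.22 to 10.2 (median 3.25). At dpc16 it was above Hamp2 in 2 of 9 libraries, and the ratio was 0.0410 to 1.55 (median 0.208). These 2 were number 2 of zones 1 and 2 (1.55 and 1.33), and number 2 was also highest in zone 3 (0.715). Zones of a number may share a mouse, so the 9 libraries are not 9 separate cases. The sum of both had medians of 1636 FPKM in NP, 1190 FPKM at dpc8 and 1818 FPKM at dpc16. In zone 3 the sum was 1397, 695.7 and 775.3 FPKM in NP and 262.9, 320.1 and 100 FPKM at dpc16, lower at dpc16 without overlap. The ratio was examined after the values had been seen, and no test was made of it. The genes are near copies, so the split of their reads depends on bases at which they differ, and the authors kept only reads that mapped to 1 place.

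**Figure D2:**
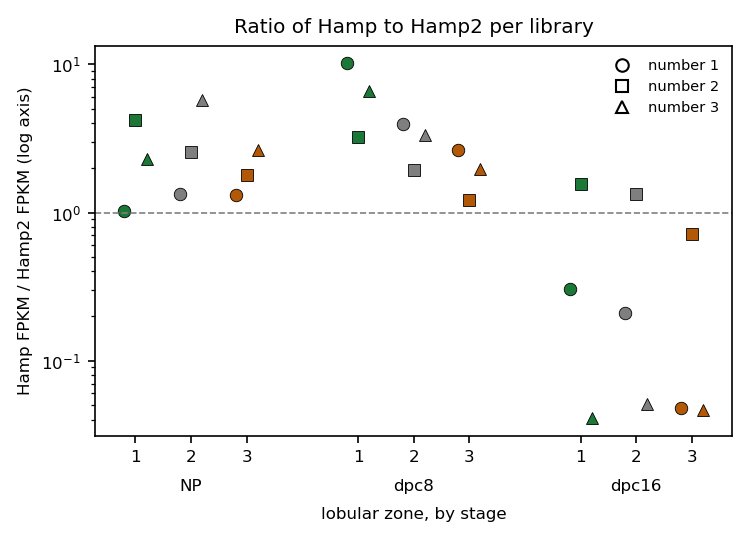
Ratio of Hamp to Hamp2 FPKM in each library (log axis) by stage and zone, with the library number as the symbol. All 18 libraries of NP and dpc8 lie above the dashed line at 1, and 7 of the 9 libraries of dpc16 lie below it.

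Over the mean of the stages both hepcidin genes were called higher in zone 1 than in zone 3. Within a single stage only Hamp2 was called, at dpc16. In NP and at dpc8, zones 1 and 3 overlapped for Hamp2 and did not overlap for Hamp. At dpc8, Hamp2 held 94.6, 376.4 and 452.4 FPKM in zone 1 and 117.0, 352.9 and 279.2 FPKM in zone 3. At dpc16, Hamp2 was higher in zone 1 than in zone 3 by 3.11 ± 0.64 on the log2 scale (SE, n = 3 against 3, limma adjusted p = 0.00754), with no overlap, and it was the only one of the 10 genes called there, in a comparison that called 1.55% of all genes. The call was lost without number 3 of zone 1 (2.89, limma adjusted p = 0.0514) and without number 3 of zone 3 (2.72, limma adjusted p = 0.0620), and it was kept without all Y-positive libraries (2.72, limma adjusted p = 0.0136). Hamp was 4.19 ± 1.17 higher in zone 1 at dpc16, short of the threshold (limma adjusted p = 0.0874). With the replicate block this passed it (limma adjusted p = 0.00993, and 0.00345 with the number as a fixed term), as it did without number 3 of zone 1 (5.31, limma adjusted p = 0.0249) and without number 2 of zone 3 (5.52, limma adjusted p = 0.0134), but not without the Y-positive libraries (3.20, limma adjusted p = 0.138).

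Over the mean of the stages, 4 of the 10 genes, Hamp, Hamp2, Tfrc and Id1, were called higher in zone 1 than in zone 3, and none was called lower. Of all genes, 5.59% were called in this comparison, and the median log2 difference was 0.48 over the 10 genes against 0.04 over all genes. Hamp was higher in zone 1 by 2.32 ± 0.68 (SE, limma adjusted p = 0.0452) and Hamp2 by 1.32 ± 0.37 (limma adjusted p = 0.0359), each over 9 libraries against 9. Both calls were near the threshold. Leaving out 1 library at a time ended that of Hamp in 16 of 18 cases (1.97 to 2.43, limma adjusted p up to 0.111) and that of Hamp2 in 11 of 18 cases (1.16 to 1.35, limma adjusted p up to 0.0872). Within NP alone, none of the 10 genes was called between zones, at any p under 0.05 before adjustment either (limma), while 1.34% of all genes were called.

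Receptors that sense transferrin iron for hepcidin control, Tfr2 and its partner Hfe, the hemochromatosis gene, showed no called difference in any of the 15 comparisons. Tfr2 held medians of 142.5 FPKM in NP (range 95.6 to 166.4), 150.9 FPKM at dpc8 (101.9 to 199.0) and 187.2 FPKM at dpc16 (65.0 to 216.9), with 9 libraries each. The zone averages of dpc16 and NP differed by 0.21 ± 0.23 on the log2 scale. Hfe held medians of 22.1 FPKM in NP (10.9 to 34.2), 24.5 FPKM at dpc8 (9.88 to 28.2) and 19.3 FPKM at dpc16 (6.16 to 32.2), and differed by -0.17 ± 0.25 between dpc16 and NP. Both genes were lowest in the Y-positive libraries, which held 65.0 to 107.7 FPKM of Tfr2 against 113.8 to 216.9 FPKM in the others, and 6.16 to 15.2 FPKM of Hfe against 15.7 to 34.2 FPKM.

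Tfrc, the transferrin receptor by which cells import iron, rose at dpc16. Zone 2 held 9.25, 8.18 and 14.6 FPKM in NP and 39.2, 43.8 and 29.9 FPKM at dpc16. Zone 1 held 10.1, 13.3 and 18.8 FPKM in NP and 64.5, 61.8 and 19.6 FPKM at dpc16. The stages did not overlap in either zone, though in zone 1 the highest NP and lowest dpc16 libraries were close and overlapped as a share of the library's FPKM sum (up to 0.00267% in NP and down to 0.00223% at dpc16). The log2 fold change was 1.75 in zone 2 (limma adjusted p = 0.00753) and 1.59 ± 0.36 in zone 1 (limma adjusted p = 0.0251), with n = 3 against 3. Tfrc was the only one of the 10 genes called in each of these comparisons, beside 2.66% of all genes in zone 2 and 1.37% in zone 1.

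In zone 3, Tfrc held 6.73, 8.13 and 8.39 FPKM in NP and 18.8, 17.5 and 13.2 FPKM at dpc16, again without overlap, and the log2 difference of 0.99 did not pass the threshold (limma adjusted p = 0.228). Whether the zones differed in the change from NP to dpc16 was tested for zones 1 and 3, and none of the 10 genes was called, beside 0.054% of all genes. Only Hamp2 had p under 0.05 before adjustment there (2.43 ± 0.91 on the log2 scale, limma adjusted p = 0.993).

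Over the zone averages, Tfrc rose by 1.44 ± 0.27 on the log2 scale from NP to dpc16 (SE, n = 3 against 3, limma adjusted p = 0.0242) and was 1.57 higher at dpc16 than at dpc8 (limma adjusted p = 0.0215). With Id1 it was 1 of 2 genes of the 10 called in each of these comparisons, and both genes were higher at dpc16. Of all genes, 3.08% were called against NP and 2.14% against dpc8. Without the Y-positive libraries the zone 2 call stayed (1.90, limma adjusted p = 0.00858), as did that against dpc8 (1.46, limma adjusted p = 0.0461), and those of zone 1 (1.38, limma adjusted p = 0.0718) and of the averages against NP (1.26, limma adjusted p = 0.0794) were lost. Leaving out 1 library at a time, the zone 2 call held in 6 of 6 cases. The zone 1 call was lost without number 1 or 2 of either stage (1.30 to 1.57, limma adjusted p = 0.0861 to 0.185), as was that of the averages against NP (1.30 to 1.40, limma adjusted p = 0.0834 to 0.104). The call against dpc8 was lost in 5 of 6 cases, without any number of dpc8 and without number 1 or 2 of dpc16 (1.41 to 1.65, limma adjusted p = 0.0519 to 0.101).

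Tfrc was also zonated, at 0.995 ± 0.208 on the log2 scale between zones 1 and 3 over the mean of the stages (SE, limma adjusted p = 0.00360), a call that held in 18 of 18 cases of leaving out a library and in 9 of 9 other alternatives. At dpc16 alone the difference was 1.34 (limma adjusted p = 0.0689), and with the replicate block it passed the threshold (limma adjusted p = 0.0163), but not with the number as a fixed term (limma adjusted p = 0.0908). Without number 3 of dpc16 zone 1 it was 1.89 (limma adjusted p = 0.00114). Proliferating cells carry much of this receptor, and 12 proliferation genes summed to medians of 19.3 FPKM in NP, 61.3 FPKM at dpc8 and 9.98 FPKM at dpc16, where those of Tfrc were 9.25, 8.78 and 29.9 FPKM. Their part in the Tfrc values was not tested.

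Trf, which encodes transferrin, the carrier of iron in plasma, was the most abundant of the 10 RNAs, at 8135 to 45419 FPKM. Zone 1 held 9858, 23673 and 20652 FPKM in NP and 35749, 38377 and 45419 FPKM at dpc16. Zone 3 held 15702, 15394 and 14381 FPKM in NP and 33062, 31761 and 22002 FPKM at dpc16. The stages did not overlap in these zones. In zone 2, number 3 of dpc16, at 12727 FPKM, fell below all 3 NP libraries (15767, 18634 and 19484 FPKM), while numbers 1 and 2 held 36056 and 35614 FPKM. As a share of the library's FPKM sum, Trf overlapped in zone 1 too, at 1.97% to 3.75% in NP and 3.62% to 5.18% at dpc16, and not in zone 3, at 2.17% to 2.74% and 3.81% to 3.95%. The FPKM sums themselves were 499866 to 704327 in NP and 523854 to 988500 at dpc16, and the 7 hepatocyte genes had median sums of 58440 and 174406 FPKM. Their part in the Trf values was not tested.

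With all libraries, the log2 difference of Trf between dpc16 and NP was 0.88 ± 0.29 over the zone averages (SE, n = 3 against 3, limma adjusted p = 0.160) and passed the threshold in no zone in the fit without weights, block or covariate. With the replicate block the averages passed it (limma adjusted p = 0.0370), as did the difference of 1.24 from dpc8 (limma adjusted p = 0.00363, against 0.0687 without the block). Array weights called Trf against NP in zones 1, 2 and 3 (0.92, 0.94 and 1.07, limma adjusted p = 0.0179, 0.00897 and 0.00534) and over the averages (0.999, limma adjusted p = 0.0156). The connective tissue covariate called it in zones 1 and 3 (0.92 and 0.84, limma adjusted p = 0.0239 and 0.0266) and over the averages (0.80, limma adjusted p = 0.00693), and both called it against dpc8. The Y-positive libraries were the lowest of their groups for Trf in 5 of 6 cases. Without them, Trf rose by 0.84 in zone 1, 1.002 in zone 2 and 1.11 in zone 3 (limma adjusted p = 7.80e-04, 1.26e-04 and 1.45e-04) and by 0.985 over the averages (limma adjusted p = 0.00147). The same difference over all libraries was 0.21 after quantile normalization, which gives each library the same set of values and so the top genes nearly the same ones.

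**Figure D3:**
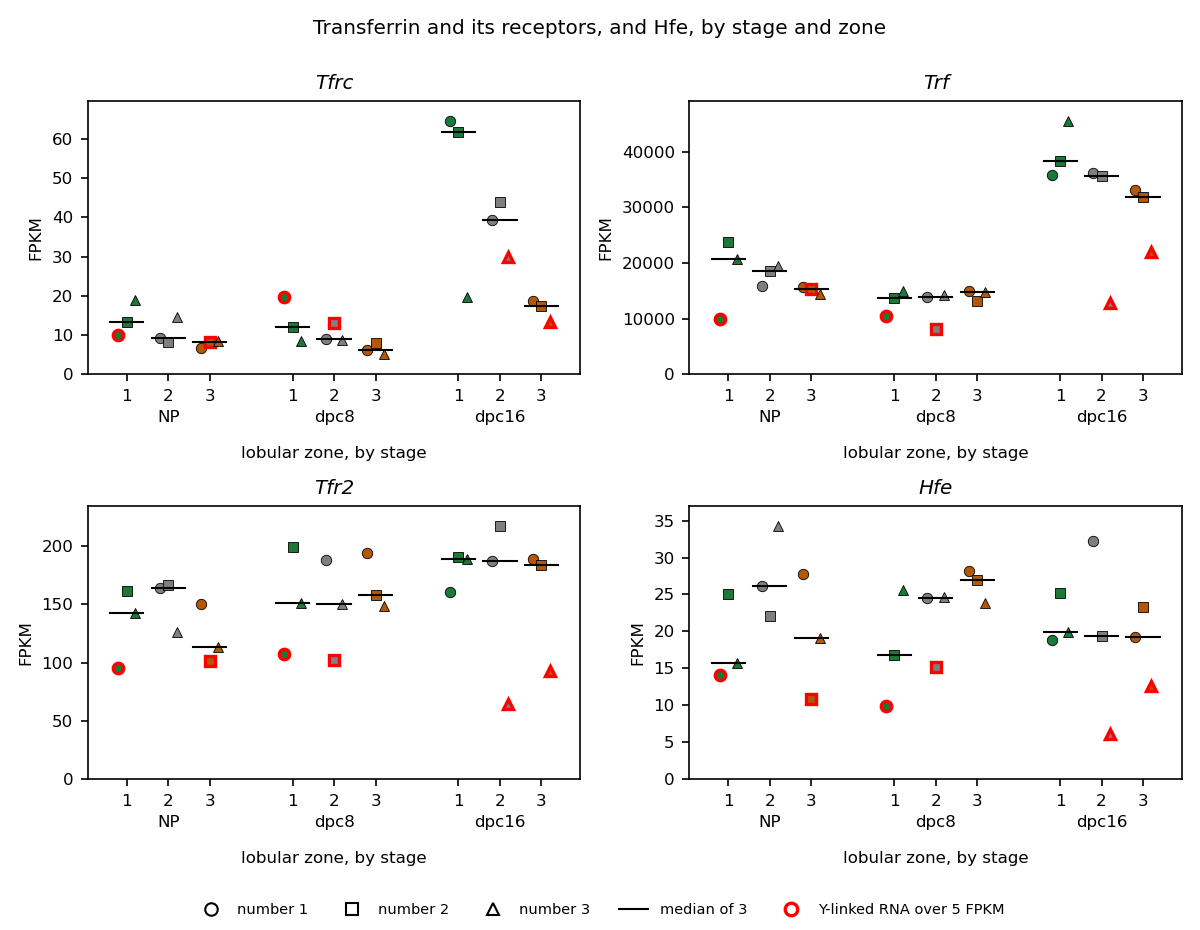
FPKM of Tfrc, Trf, Tfr2 and Hfe in each library (linear axes from 0) by stage and zone, with symbols for the library number, bars for the median of 3 libraries and red outlines for the 6 Y-positive libraries. Tfrc at dpc16 steps down from medians of 61.8 FPKM in zone 1 to 17.5 FPKM in zone 3, and the low Trf, Tfr2 and Hfe values at dpc16 are the outlined libraries.

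Slc40a1, which encodes ferroportin, the iron exporter that hepcidin removes, was not called in any comparison. It held medians of 77.9 FPKM in NP (59.2 to 140.9), 92.0 FPKM at dpc8 (49.6 to 125.1) and 92.9 FPKM at dpc16 (43.6 to 180.8), 9 libraries each. The zone averages of dpc16 and NP differed by 0.09 ± 0.24 on the log2 scale. Between zones 1 and 3 the log2 difference was 0.42 ± 0.23 over the mean of the stages, short of the threshold (limma adjusted p = 0.413). Ferroportin is controlled largely at the protein, which was not measured here.

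Bmp6, the ligand that raises hepcidin, was weakly expressed, at 0.793 to 5.08 FPKM. Zone 3 held 5.08, 4.14 and 2.04 FPKM in NP and 1.26, 0.827 and 0.957 FPKM at dpc16, without overlap. Zone 1 held 2.59, 3.85 and 2.27 FPKM in NP and 1.25, 1.49 and 1.46 FPKM at dpc16, without overlap too, whereas the stages overlapped in zone 2. None of these differences passed the threshold: the log2 difference was -1.18 ± 0.32 in zone 3 (limma adjusted p = 0.0671) and -0.83 ± 0.22 over the zone averages (limma adjusted p = 0.0961). The averages passed it with the replicate block (limma adjusted p = 0.0215), and zone 3 passed it without number 3 of NP (-1.48, limma adjusted p = 0.0342). Without the Y-positive libraries neither passed it (-1.08 in zone 3 and -0.73 over the averages, limma adjusted p = 0.144 and 0.0814). At these levels the log2(FPKM + 1) scale understates a change. Markers of sinusoidal endothelium, the main source of Bmp6 in liver, summed to medians of 201.5 FPKM in NP, 139.7 FPKM at dpc8 and 204.5 FPKM at dpc16 (9 genes, none at 0 in any library). In zone 3 they summed to 191 to 270.4 FPKM in NP (median 193.8) and to 108.1 to 214.5 FPKM at dpc16 (median 175.7). Their part in the Bmp6 values was not tested.

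Id1, a direct target of BMP and SMAD signals, rose at dpc16. All 9 libraries of dpc16 held 28.3 to 38.6 FPKM, above all 9 of NP, which held 4.53 to 25.2 FPKM. As a share of the library's FPKM sum they overlapped, at 0.00292% to 0.00715% at dpc16 and 0.000769% to 0.00505% in NP. The dpc8 libraries held 3.61 to 50.1 FPKM. The zone averages rose by 1.33 ± 0.26 on the log2 scale from NP to dpc16 (SE, n = 3 against 3, limma adjusted p = 0.0311) and were 1.27 higher at dpc16 than at dpc8 (limma adjusted p = 0.0445). Within a zone it was not called, at log2 differences of 0.91 in zone 1 (limma adjusted p = 0.458), 1.52 in zone 2 (limma adjusted p = 0.0649) and 1.56 in zone 3 (limma adjusted p = 0.0817). That of zone 2 was 0.99 without number 2 of NP (limma adjusted p = 0.278) and passed the threshold without number 1 of NP (1.92, limma adjusted p = 0.0311).

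Id1 was the highest of its group in each of the 6 Y-positive libraries, with a median of 31.7 FPKM in them and 18.4 FPKM in the others. Both calls of Id1 between stages depended on few libraries. Without the Y-positive libraries they were lost at similar sizes (1.29, limma adjusted p = 0.0712, and 1.38, limma adjusted p = 0.0554). That against NP was lost without number 2 or 3 of NP or number 1 or 2 of dpc16 (1.14 to 1.39, limma adjusted p = 0.0843 to 0.123), and that against dpc8 was kept only without number 3 of dpc16 (1.09 to 1.44 in the 5 other cases, limma adjusted p = 0.0766 to 0.169). Without a filter on low values they were lost too (limma adjusted p = 0.0572 and 0.0804).

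Between zones within 1 stage, Id1 was called at dpc8 alone. Its level there was 50.1, 24.7 and 21.6 FPKM in zone 1, 11.8, 25.9 and 10.6 FPKM in zone 2, and 3.61, 7.73 and 4.41 FPKM in zone 3. Zone 1 exceeded zone 3 without overlap, by 2.36 ± 0.44 on the log2 scale (SE, n = 3 against 3, limma adjusted p = 0.00326). It was the only one of the 10 genes called in this comparison, in which 1.61% of all genes were called, and the call held in 6 of 6 cases of leaving out a library and without the Y-positive libraries (2.00, limma adjusted p = 0.0188). Over the mean of the stages the difference was 1.003 ± 0.253 (limma adjusted p = 0.0176). In NP it was 0.65 (limma adjusted p = 0.844) and at dpc16 -0.01 (limma adjusted p = 0.999), and neither was called. Whether the change from NP to dpc8 differed between zones 1 and 3 was tested, and Id1 was 1.71 ± 0.62 higher in zone 1 but not called (limma adjusted p = 1). In that comparison 0 of the 10 genes and 0% of all genes were called by limma, with 306 genes under a p of 0.05 before adjustment, of which Id1 was the only one of the 10.

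Smad7, the inhibitory SMAD that BMP signals induce and that lowers hepcidin in turn, was not called. It held medians of 9.74 FPKM in NP (5.58 to 17.2), 5.46 FPKM at dpc8 (3.09 to 19.6) and 6.36 FPKM at dpc16 (3.52 to 21.3). Its 4 highest libraries, at 17.99 to 21.3 FPKM, were all Y-positive, and the others held 3.09 to 17.2 FPKM. At dpc8 it held 19.6, 11.7 and 7.67 FPKM in zone 1 and 3.59, 3.09 and 3.51 FPKM in zone 3, with no overlap, a log2 difference of 1.58 ± 0.56 that did not pass the threshold (limma adjusted p = 0.220), nor did that of 1.26 without the Y-positive libraries (limma adjusted p = 0.111).

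**Figure D4:**
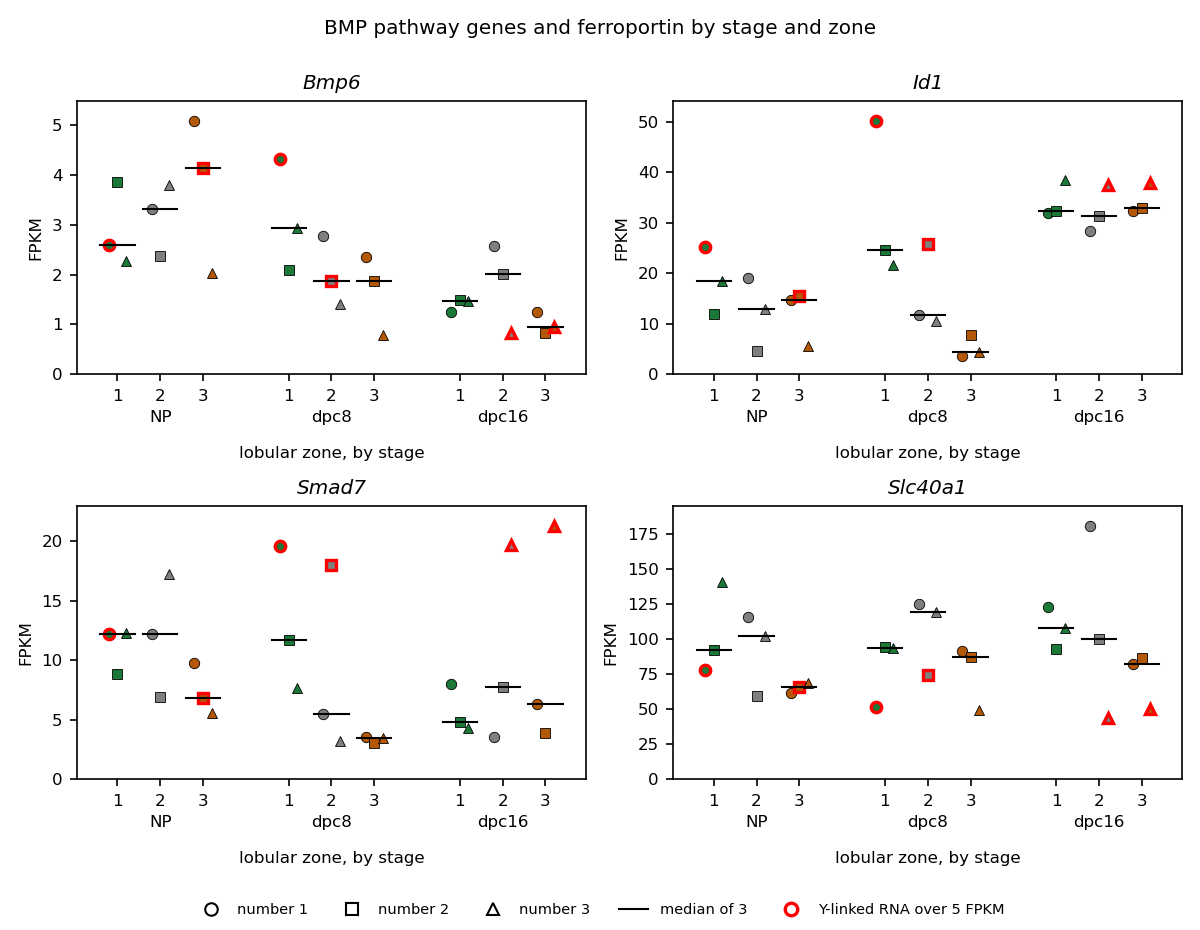
FPKM of Bmp6, Id1, Smad7 and Slc40a1 in each library (linear axes from 0) by stage and zone, with symbols for the library number, bars for the median of 3 libraries and red outlines for the 6 Y-positive libraries. Id1 at dpc16 lies between 28.3 and 38.6 FPKM in all zones, Bmp6 at dpc16 is at most 2.57 FPKM, and the highest Smad7 values are the outlined libraries.

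At dpc8, none of the 10 genes was called against NP in zone 1, 2 or 3 or over the zone averages by limma, beside 0.0309%, 0.00772%, 0.0154% and 0.0154% of all genes. Before adjustment, Bmp6 and Id1 had p under 0.05 in zone 3 and none of the 10 genes did in the other 3 comparisons. The median log2 difference of the 10 genes was -0.13 over the averages at dpc8 and 0.15 at dpc16, and that of all genes at dpc16 was -0.01. The comparisons of dpc8 and dpc16 with NP share the NP libraries.

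**Figure D5:**
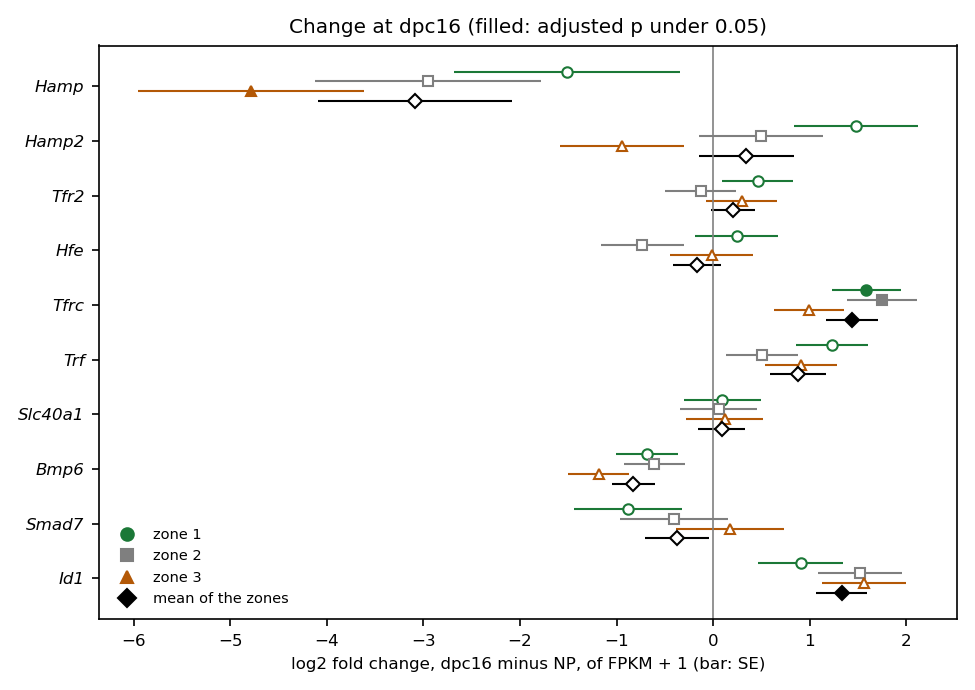
Log2 fold change from NP to dpc16 of the 10 genes (horizontal axis, log2 of FPKM + 1) in zones 1, 2 and 3 and over the zone averages, with bars for the SE. Filled symbols passed an adjusted p of 0.05. Hamp in zone 3 lies farthest left at -4.79, Tfrc lies right of 0 in all zones, and the open symbols of Tfr2 and Slc40a1 lie near 0.

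Other genes of the pathway were counted in 5 lists. Of 21 genes of hepcidin control, such as the BMP receptors and SMADs, 20 were tested (Erfe, the hormone of red cell precursors that lowers hepcidin, was under the filter), and 1, Furin, was called. Its 3 calls came in comparisons that called 1.37% (zone 1 against NP), 3.08% (averages against NP) and 2.14% (averages against dpc8) of all genes, so 1 gene of 20 was near the background. Furin, a protease that cuts prohepcidin and other proproteins, held 102.9, 148.5 and 114.9 FPKM in NP zone 1 and 213.0, 255.8 and 403.5 FPKM at dpc16. As a share of the library's FPKM sum these overlapped, with sums of 630537 in NP number 2 and 988500 in dpc16 number 1. Furin rose in zone 1 by 1.21 ± 0.29 on the log2 scale (limma adjusted p = 0.0376) and over the zone averages by 0.81 ± 0.16 (limma adjusted p = 0.0346), and was 1.02 higher than at dpc8 (limma adjusted p = 0.0157). The call against NP over the averages was lost in 5 of 6 cases of leaving out a number, all but number 3 of dpc16 (0.73 to 0.85, limma adjusted p up to 0.135), that of zone 1 in 5 of 6 cases (0.95 to 1.36, limma adjusted p up to 0.169) and that against dpc8 in 4 of 6 cases (0.94 to 1.001, limma adjusted p up to 0.0872). With only the groups compared all 3 were lost (limma adjusted p = 0.205 in zone 1, 0.0907 over the averages and 0.0713 against dpc8), and without the Y-positive libraries all 3 were kept. After quantile normalization that of zone 1 was lost (0.98, limma adjusted p = 0.0869).

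Of 9 genes of iron uptake and export, Cp was the only one called at dpc16 in zones 1, 2 and 3, where 1.37%, 2.66% and 1.32% of all genes were called. Cp encodes ceruloplasmin, the copper ferroxidase that readies exported iron for transferrin. Zone 1 held 300.6, 610.3 and 631.1 FPKM in NP and 3821, 3808 and 3649 FPKM at dpc16, zone 2 held 383.1 to 731.4 and 1169 to 4135 FPKM, and zone 3 held 346.6 to 473.5 and 1749 to 3590 FPKM. No dpc16 library overlapped NP. Its log2 fold change was 2.94, 2.31 and 2.79 in zones 1, 2 and 3 (limma adjusted p = 1.98e-04, 0.00260 and 3.85e-04) and 2.68 ± 0.31 over the averages (limma adjusted p = 0.00267). These calls held when any 1 library was left out and without the Y-positive libraries (2.60, 2.89, 3.25 and 2.76), but with only the groups compared in the fit that of zone 2 was lost (limma adjusted p = 0.280). The second called gene of the list, Slc25a37, a mitochondrial iron importer, was lower in zone 1 than in zone 3, at a log2 difference of -0.55 over the mean of the stages (limma adjusted p = 0.0488), where 5.59% of all genes were called. This call was lost in 14 of 18 cases of leaving out a library (-0.574 to -0.459, limma adjusted p up to 0.117), without a filter on low values (limma adjusted p = 0.0513) and with only the groups compared (limma adjusted p = 0.0759).

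Of the 3 genes of cellular iron sensing, Aco1, which encodes the iron regulatory protein that doubles as cytosolic aconitase, was the only one called, in comparisons that called 2.66% (zone 2 against NP), 3.08% (averages against NP) and 2.14% (averages against dpc8) of all genes. Zone 2 held 79.6, 81.4 and 67.1 FPKM in NP and 36.1, 33.8 and 28.0 FPKM at dpc16. It fell there by 1.20 on the log2 scale (limma adjusted p = 0.0187), and over the zone averages the change was -0.86 ± 0.16 (limma adjusted p = 0.0245), lost in 5 of 6 cases of leaving out a number (-0.917 to -0.802, limma adjusted p up to 0.107). The zone 2 call was lost in 4 of 6 cases (-1.23 to -1.10, limma adjusted p up to 0.0710). Against dpc8 the averages differed by -0.89 (limma adjusted p = 0.0274), a call lost in 5 of 6 cases (-0.969 to -0.749, limma adjusted p up to 0.122). With only the groups compared all 3 calls were lost (limma adjusted p = 0.183 in zone 2, 0.0596 over the averages against NP and 0.0879 against dpc8). None of the 5 genes of iron storage was called, in comparisons that called 0% to 5.59% of all genes. The most abundant of them, Ftl1, the ferritin light chain, held group means of 1699 to 2667 FPKM.

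Of the 8 genes of heme and hemoglobin handling, Hpx and Blvrb were called between zones, both over the mean of the stages (5.59% of all genes called) and Blvrb also in NP (1.34%), at dpc8 (1.61%) and at dpc16 (1.55%). Hpx, which encodes hemopexin, the plasma carrier of heme, was 1.38 higher in zone 1 over the mean of the stages (limma adjusted p = 0.00250). Blvrb, a biliverdin reductase, was lower in zone 1 in every stage, at -2.11 in NP, -2.64 at dpc8 and -1.88 at dpc16 (limma adjusted p = 3.53e-05, 1.45e-06 and 1.33e-04). No gene of this list was called between stages.

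Over the 27 libraries the genes whose log2 values were most like those of Hamp were C9 (Pearson's r = 0.861), Cps1 (0.842), Aass (0.834), Slc38a4 (0.833) and Csf1r (0.833), and those most like Tfrc were Txndc11 (0.895), Sec13 (0.888), Akap11 (0.881), Slc16a6 (0.870) and Rab6a (0.866). The points share stages, zones, depth and the Y-positive libraries, so these values describe likeness only.

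On GRCm38 with the GENCODE vM21 annotation, the genes with called differences lie at chr7:30942368-30944032 (Hamp), chr7:30922372-30924681 (Hamp2), chr16:32608920-32632794 (Tfrc) and chr2:152736251-152737410 (Id1). FPKM is a level per transcript length, so levels can be set side by side: by the median over all 27 libraries the order was Trf (15702 FPKM), Hamp (790.4), Hamp2 (405.3), Tfr2 (157.6), Slc40a1 (92.0), Hfe (22.1), Id1 (21.6), Tfrc (13), Smad7 (7.67) and Bmp6 (2.09). At dpc16 alone the order was different, with medians of 1038 FPKM for Hamp2, 187.2 for Tfr2 and 133.4 for Hamp, and of 32.3 for Id1, 29.9 for Tfrc and 19.3 for Hfe. Neighbours in the order over all libraries overlapped in range, except that Trf was above Hamp and Slc40a1 above Hfe without overlap.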

How the data were processed

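Libraries of ribosome-depleted RNA were sequenced as single-end reads of 86 bases. After trimming, the authors mapped them to mm10 (HISAT2 2.1.0), took forward reads with a unique position, and ran Cuffdiff (Cufflinks 2.2.1) on protein-coding GENCODE genes to get FPKM. These deposited FPKM values were used as they are, with groups and numbers from the sample titles.

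Values were transformed to log2(FPKM + 1) and tested with limma 3.58.1 (R 4.3.3; two-sided, trend and robust settings) over 12952 genes with at least 1 FPKM in at least 3 libraries. Group means of the 9 groups were fitted together, so that 1 estimate of the spread came from all 27 libraries. Contrasts of stages over the zones used averages per stage and number. Each comparison was adjusted on its own (Benjamini-Hochberg), and genes with adjusted p under 0.05 are named as called. The procedure was tested on simulated data. Depth is not given by FPKM and was estimated, so no counting interval was computed.

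The 10 genes and the lists were chosen with earlier results of these data known. All 10 genes are named, as are genes of the 5 pathway lists called in any comparison, or the most abundant gene of a list with none, and the 5 genes most like Hamp and Tfrc. The alternatives were a pseudocount of 0.1, no filter, median-of-ratios scaling, quantile normalization, array weights, only the groups compared, a replicate block, removal of the Y-positive libraries, a connective tissue covariate and leaving out each library. Same-numbered libraries of different zones deviated from their group means together at dpc16, at correlations of 0.263 to 0.863 with 9 of 9 over 0.1, so the number may pair them there. Numbers 1 and 2 of dpc16 zones 2 and 3, where number 3 is Y-positive, also correlated across numbers (0.561 and 0.593). At dpc8, the Y-positive number 1 of zone 1 and number 2 of zone 2 correlated at 0.638, and number 2 of both zones at -0.318. The part of the Y-positive libraries in these correlations was not tested. The fits reported first have no block, and the fit with the number as a replicate block is given beside the results whose call it changed. The block uses 1 correlation (0.193) for all genes. For a gene whose zones share more by number, its p-values between stages are too small. Of the same-numbered pairs, 4 of 9 in NP and 5 of 9 at dpc8 correlated at over 0.1.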

Additional observations from a re-analysis of the deposited data

How the results depend on the processing

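The number of the 10 genes called changed with these settings. For dpc16 against NP in zone 1 (1 gene), it was 2 with array weights, 0 with only the groups compared and 2 with the connective tissue covariate, and 0 to 1 when a library was left out. In zone 2 (1 gene) it was 3, 0 and 2 with the same settings, 2 without the Y-positive libraries, and 1 to 2 when a library was left out. In zone 3 (1 gene) it was 5, 0 and 4, with 0 without the filter on low values, and 0 to 1 when a library was left out. Over the zone averages (2 genes) it was 4, 0 and 4, with 1 without the filter, 1 without the Y-positive libraries and 5 with the replicate block, and 0 to 3 when a number was left out. For dpc16 against dpc8 (2 genes) it was 3 with array weights, 1 without the filter, 0 with only the groups compared, 4 with the replicate block and 4 with the covariate, and 0 to 3 when a number was left out. Between zones 1 and 3 it was 1 without the Y-positive libraries in NP (0 genes), 2 with array weights at dpc8 (1 gene), and at dpc16 (1 gene) 3 with array weights, 3 with the replicate block, 2 with the covariate, 2 with the number as a fixed term, an alternative chosen after seeing the data, and 0 to 2 when a library was left out. Over the mean of the stages (4 genes) it was 2 without the filter, 5 without the Y-positive libraries, where Trf was called too, and 2 to 3 when a library was left out. With only the groups compared, fewer libraries estimate the spread, and for the rest the cause was not tested.

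Alternatives were tabulated for differences of the 10 genes that were called in at least 1 setting and for the called pathway genes. Among these, 1 changed sign: Trf between zones 1 and 3 in NP, at 0.157, which was not called, became -0.086 without number 2 of NP zone 1, within a range of -0.086 to 0.546 when a library was left out. For dpc16 against NP, array weights and the covariate both called Bmp6 in zone 3 and Id1 in zones 2 and 3, array weights also Tfrc in zone 3 and Bmp6 over the averages, and the covariate Hamp over the averages. The covariate also called Hamp against dpc8. Between zones 1 and 3, both called Hamp at dpc16, and array weights also Tfrc at dpc16 and Smad7 at dpc8. Without the filter, the calls of Hamp in zone 3 against NP and of Hamp and Hamp2 between zones over the mean of the stages were lost. The replicate block changed no call of the 10 genes other than those given above.

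Counts over all genes moved by over 1.5 times with some settings. For dpc16 against NP in zones 1, 2 and 3 and over the averages they were 177, 345, 171 and 399 genes, against 667, 1101, 776 and 1267 with array weights, 59, 17, 40 and 127 with only the groups compared, 333, 828, 543 and 975 with the covariate, and 378, 576, 468 and 495 without the Y-positive libraries. The replicate block gave 881 over the averages, and 801 in place of 277 for dpc16 against dpc8, which was 2364 with array weights, 826 with the covariate, 546 without the Y-positive libraries and 104 with only the groups compared. Between zones 1 and 3, array weights gave 271 in place of 173 in NP, 855 in place of 208 at dpc8, 496 in place of 201 at dpc16 and 1450 in place of 724 over the mean of the stages. Without the Y-positive libraries they were 234, 357, 351 and 1060, with the replicate block 244, 373, 312 and 1019, and with the covariate 286, 263, 329 and 1106. With only the groups compared NP had 70. Leaving out 1 number gave 118 to 843 over the averages against NP and 86 to 954 against dpc8, and leaving out 1 library gave 89 to 175, 193 to 324 and 89 to 151 in zones 1, 2 and 3 against NP. For dpc8 against NP in zone 1, 4 genes became 22 with array weights, 20 with the covariate, 9 without the Y-positive libraries and 1 to 2 when a library was left out. At the estimated depths, 1 FPKM on a transcript of 1 kb stands for about 7.35 to 32.7 reads, so low values such as those of Bmp6 rest on few reads.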
